A study of Mus musculus with 6 samples.

Results

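The genes described here are 10 surface proteins by which murine hematopoietic stem cells (HSCs) are sorted, or through which they receive signals from their bone marrow niche. They were taken by symbol from 26216 gene names: Kit, Ly6a, Slamf1, Cd48, Procr, Cd34, Thy1, Eng, Tek and Cxcr4. All 10 were listed, and all 10 lay among the 13108 more highly expressed names that were tested. RNA-seq was done on LT/ST-HSCs, the fraction that holds long-term and short-term repopulating HSCs, in 3 biological replicates of Ltbr-/- (CD45.2) cells and 3 of Ly5.1 (CD45.1) cells. The Ltbr-/- donors, which lack the lymphotoxin beta receptor in every cell from birth, were 13, 10 and 10 to 13 weeks old in replicates 1, 2 and 3, and the Ly5.1 donors 7 to 13 weeks in each replicate, so that age and genotype cannot be told apart. Cells of both genotypes had been transplanted together into lethally irradiated recipients and were sorted from these mixed chimeras 6 weeks later, with the cells of 6 chimeras pooled to 3 replicates per genotype. Both groups therefore share irradiated hosts and transplantation, and each value is a pool of animals.

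The sort itself used proteins of 4 of the 10 genes. Cells were Lin-, Annexin V-, sca1+ (the product of Ly6a), c-kit+ (Kit), CD150+ (Slamf1) and CD48- (Cd48), and the CD45 form, a product of Ptprc, told the genotypes apart. The mRNA of these 4 genes was thus measured in cells chosen by their protein. CD34 was not part of the gate, so that CD34- long-term and CD34+ short-term HSCs were sequenced together, and a smaller share of CD34+ cells cannot be told apart from less Cd34 mRNA per cell. The same holds for the other genes in bulk samples.

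HSCs are rare cells that lack lineage markers, and no single protein defines them. Combinations do: c-Kit, the receptor for stem cell factor (SCF), and Sca-1 are carried by the whole stem and progenitor compartment, whereas CD150 without CD48 enriches for stem cells within it. EPCR, encoded by Procr, and low Thy-1 and CD34 are used to refine that gate, and endoglin is a further HSC marker. Tie2, encoded by Tek, and CXCR4 bind angiopoietin-1 and CXCL12, and CXCR4 keeps HSCs in the marrow. Niche cells supply SCF, CXCL12 and angiopoietins, but Angpt1 mRNA was also abundant in these sorted cells (means of 3494 in Ltbr-/- and 4238 in Ly5.1).

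The deposited value per gene, called signal here, was taken from its values to be 2 to the power of a regularized log, a log2 expression value scaled by sample and shrunk for weakly expressed genes. It is not divided by transcript length. Ltbr, the targeted gene, had a signal of 24.2, 26.4 and 23.1 in Ltbr-/- replicates 1 to 3 and of 564, 549 and 522 in Ly5.1 replicates 1 to 3, which matches the labels. Of a list of 8 HSC transcripts, Meis1, Hlf, Mecom and Fgd5 were present at mean signals between 470.1 and 2641 in both groups. Mllt3, Hoxa9 and Ctnnal1 had means between 273.7 and 828, and Hoxb5 was low, at 33.2 in Ltbr-/- and 31.8 in Ly5.1 cells. Some markers of mature lineages were near the bottom of the scale, with Cd3e below 1 in both groups, Ms4a1 of B cells at 1.15 and 1.16, and Cdh5 of endothelium at 6.45 and 6.54 (Ltbr-/- and Ly5.1 means). Others were not low, among them Cd79a (292 and 191), Nkg7 (1030.3 and 1074), Pf4 (324 and 409) and Hba-a1 (2129 and 1083). For granulocytes and monocytes the summed signal of their 12 markers was 48749 to 49132 in Ltbr-/- and 63125 to 67961 in Ly5.1 samples.

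Of the 10 genes, 3 were lower in Ltbr-/- HSCs: Ly6a, Cd34 and Eng, by 23.8%, 19.5% and 18.7%, with an adjusted p under 0.05 in limma with Benjamini-Hochberg adjustment. None of the 10 was higher. Over all tested genes 14.8% had such a p, 4.18% with a lower and 10.6% with a higher value in Ltbr-/- cells. None of the 10 also reached a fold of 1.5, as 2.78% of all genes did. The groups did not overlap in 7 of the 10 genes, each time with all Ltbr-/- samples below all Ly5.1 samples, a pattern that 13.5% of all tested genes showed. The median log2 difference, Ltbr-/- minus Ly5.1, was -0.16 over the 10 genes and -0.01 over all tested genes.

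**Figure D1:**
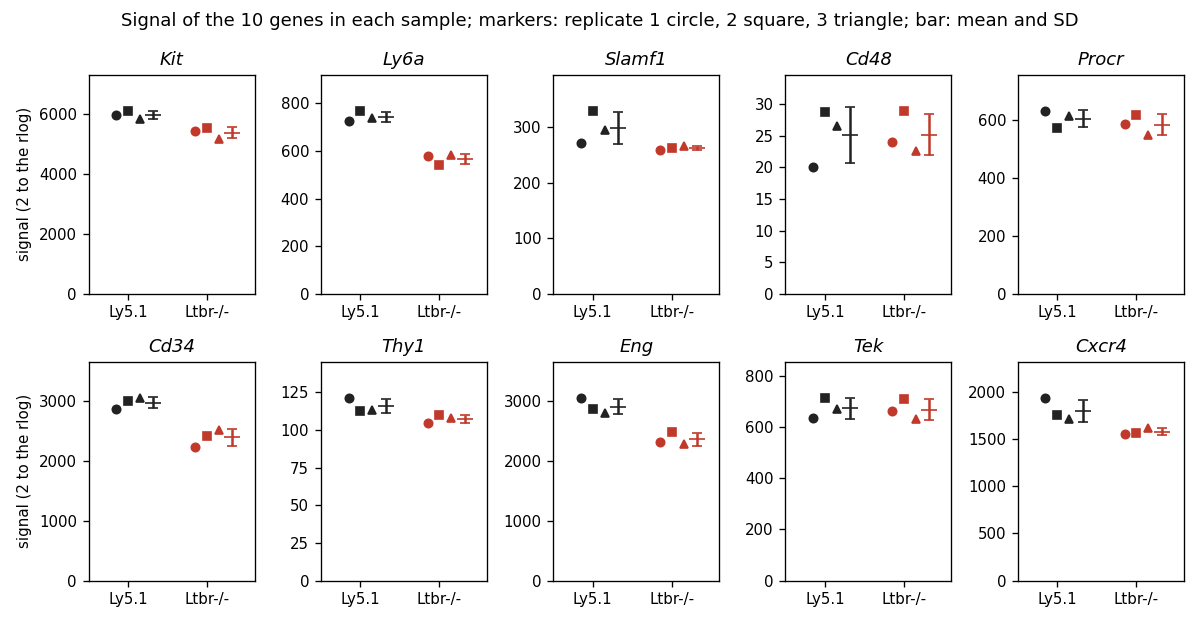
Signal (vertical axes, from 0) of the 10 genes in each Ly5.1 (black) and Ltbr-/- (red) sample, with circles, squares and triangles for replicates 1, 2 and 3 and bars for the mean ± SD of 3. In 7 panels, those other than Cd48, Procr and Tek, every red point lies below every black one, and the gap is widest relative to the level for Ly6a.

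Windows before the transcription starts of Cd34 and Eng are shown because both genes were lower in Ltbr-/- cells. They are 250 bases long, from RefSeq (GRCm38.p6), on the plus strand at chr1:194938571-194938820 for Cd34 and chr2:32646345-32646594 for Eng, with the letters AGGAAG or their complement in capitals. This is a core recognised by ETS factors, a family that includes PU.1 and Erg.
Cd34: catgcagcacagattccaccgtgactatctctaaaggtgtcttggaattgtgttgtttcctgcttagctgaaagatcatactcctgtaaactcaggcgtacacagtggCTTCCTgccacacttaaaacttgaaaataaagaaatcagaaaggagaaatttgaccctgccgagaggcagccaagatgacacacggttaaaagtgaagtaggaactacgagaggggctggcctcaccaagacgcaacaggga
Eng: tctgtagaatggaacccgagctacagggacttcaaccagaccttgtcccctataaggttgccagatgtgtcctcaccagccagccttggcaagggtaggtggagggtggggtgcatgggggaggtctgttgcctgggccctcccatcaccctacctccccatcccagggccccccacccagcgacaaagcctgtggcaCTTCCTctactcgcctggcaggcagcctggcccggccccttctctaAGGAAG
The Cd34 window held these letters 1 time and the Eng window 2 times on either strand, in windows of 46.4% and 62.4% GC. Of the 10 genes, 8 had an entry in the table, 4 of them with these letters, against 29.5% of all 32851 windows of this length. Neither Cd34 nor Eng held the GATA letters AGATAA (10.0% of all windows, 0 of the 8 genes) or the RUNX letters TGTGGT (14.0%, 1 of the 8), and both held the letters of an NF-kB site, GGG and CC with any 5 bases between them (45.8%, 5 of the 8). Searches covered both strands. No entry was used for Ly6a and Thy1.

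Among the proteins of the sort gate, Ly6a differed most. Ly6a encodes Sca-1, a GPI-anchored protein of the Ly6 family that is raised by interferon and marks stem and progenitor cells, and lies on chr15:74994877-74998031. Its signal was 578, 541 and 582 in Ltbr-/- replicates 1 to 3 and 726, 767 and 739.5 in Ly5.1 replicates 1 to 3. The highest Ltbr-/- sample lay well below the lowest Ly5.1 sample. Ly6a fell from 744 ± 20.7 to 567 ± 22.2 (SD, n = 3 each), a log2 difference of -0.39 ± 0.09 (SE; limma, Benjamini-Hochberg adjusted p = 0.00160), which is a ratio of 0.762 with a 95% confidence interval of 0.672 to 0.864. A difference this low or lower was found in 0.420% of all tested genes. Leaving out each sample in turn gave -0.41 to -0.36, and the adjusted p stayed under 0.05 in all 16 alternative settings. Of 880 windows of 76 bases, the read length, in its transcript, 19 (2.16%) also occurred in Ly6c1 or Ly6i. Ly6c1 had a signal of 375 ± 28.3 in Ltbr-/- and 372 ± 18.8 in Ly5.1 cells, and Ly6i about 11 in both.

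Kit, the SCF receptor tyrosine kinase on which HSC maintenance depends, had the highest signal of the 10 genes. It lies on chr5:75574987-75656722 and read 5449.5, 5551 and 5179 in Ltbr-/- replicates 1 to 3 and 5991, 6103 and 5849 in Ly5.1 replicates 1 to 3. All Ltbr-/- samples were below all Ly5.1 samples, but the step was small beside the level. The log2 difference of -0.15 ± 0.07 (SE) had an adjusted p of 0.154 in limma, and its interval in ratio was 0.818 to 0.994. Under quantile normalization the difference was -0.34 (adjusted p = 0.000301, limma), whereas after the correction for transcript length and GC content it was -0.08 (adjusted p = 0.481), so that the call for Kit turned on the processing.

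Slamf1, which encodes the SLAM receptor CD150, and Cd48, which encodes a GPI-anchored SLAM family protein, sit close together on chromosome 1, at chr1:171767131-171801184 and chr1:171681245-171705258. Slamf1 read 259.8, 262 and 266 in Ltbr-/- replicates 1 to 3 and 271, 329 and 295 in Ly5.1 replicates 1 to 3. The Ltbr-/- samples were close to each other and just below the lowest of the spread-out Ly5.1 samples (262.6 ± 3.39 against 298 ± 29.0). The log2 difference of -0.18 ± 0.09 did not pass (limma adjusted p = 0.220), and it was -0.11 without Ly5.1 replicate 2 (adjusted p = 0.577). Cd48, the marker sorted against, was the lowest of the 10 genes, at 24.0, 28.9 and 22.6 in Ltbr-/- and 20.1, 28.7 and 26.5 in Ly5.1 replicates 1 to 3. The groups overlapped fully, with means of 25.2 ± 3.28 and 25.1 ± 4.49. Its difference of 0.01 ± 0.08 (limma adjusted p = 0.943) corresponds to a ratio interval of 0.907 to 1.12. If the signal is a regularized log, differences between samples are shrunk at levels this low.

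The balance of Slamf1 to Cd48 within a sample, the mRNA counterpart of the CD150 and CD48 gate, did not separate the groups. The log2 ratio was 3.43, 3.18 and 3.56 in Ltbr-/- and 3.75, 3.52 and 3.48 in Ly5.1 replicates 1 to 3, and the ranges overlapped. The difference was -0.19 (exact two-sided permutation test, p = 0.3, smallest possible p with 3 against 3 samples 0.1). The log2 ratio of Cd34 to Slamf1 was 3.19 ± 0.07 and 3.32 ± 0.12, with an exact permutation p of 0.3.

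Outside the gate, Cd34 and Eng were lower and Procr and Thy1 did not pass. Cd34, a sialomucin carried by short-term HSCs and progenitors and absent from most adult long-term HSCs, lies on chr1:194938821-194961292. It read 2245, 2425 and 2524 in Ltbr-/- replicates 1 to 3 and 2875, 2999.5 and 3056 in Ly5.1 replicates 1 to 3. The groups stood apart, by a gap larger than the range within either. Cd34 fell from 2977 ± 92.7 to 2398 ± 142, a log2 difference of -0.31 ± 0.08 (SE; limma, adjusted p = 0.00434; ratio interval 0.721 to 0.899). Of its 76-base windows, 76 occurred on the opposite strand of Gm16897, an antisense gene, and whether the counting used strand is not given in the sources used here. Gm16897 itself read 362, 368 and 391 in Ltbr-/- and 421, 337 and 431 in Ly5.1 replicates 1 to 3, with overlapping groups.

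Eng encodes endoglin, a co-receptor for BMP9, BMP10 and TGF-beta that is found on endothelium and on HSCs, at chr2:32646595-32682669. It read 2307, 2485 and 2279 in Ltbr-/- and 3042, 2860.2 and 2796 in Ly5.1 replicates 1 to 3, and again the groups stood apart. Eng fell from 2900 ± 128 to 2357 ± 112, a log2 difference of -0.30 ± 0.08 (SE; limma, adjusted p = 0.00683; ratio interval 0.728 to 0.908). Leaving out each sample in turn gave -0.34 to -0.26 for Eng and -0.35 to -0.27 for Cd34. For both genes the call was lost without variance moderation (adjusted p = 0.0764 for Cd34 and 0.0760 for Eng) and kept in the other 15 settings.

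Procr encodes EPCR, the endothelial protein C receptor, and is among the most selective surface markers of long-term HSCs. It lies on chr2:155751125-155755478. Its signal was 585, 619 and 549 in Ltbr-/- and 630.4, 572 and 613 in Ly5.1 replicates 1 to 3, with overlapping groups. The difference of -0.05 ± 0.09 (limma adjusted p = 0.774) left a ratio interval of 0.849 to 1.10. Thy1, a GPI-anchored protein low on HSCs and high on T cells, lies on chr9:44043384-44048579 and read 104.5, 109.8 and 108 in Ltbr-/- against 121, 113 and 113 in Ly5.1 replicates 1 to 3. Its groups did not overlap but lay close together, and the difference of -0.11 ± 0.08 did not pass (limma adjusted p = 0.421). After the length and GC correction the difference was -0.19 for Thy1 and -0.14 for Procr, neither past the threshold. The T-cell markers Cd3e, Cd3d, Cd3g, Cd4 and Cd8a had mean signals of 0.98, 13.5, 16.8, 11.3 and 0.75 in Ltbr-/- cells and 0.98, 13.8, 16.6, 11.8 and 0.75 in Ly5.1 cells. The sum of all 7 T and NK cell markers, 1035 to 1151 in Ltbr-/- and 1095 to 1219 in Ly5.1 samples, was held almost wholly by Nkg7.

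**Figure D2:**
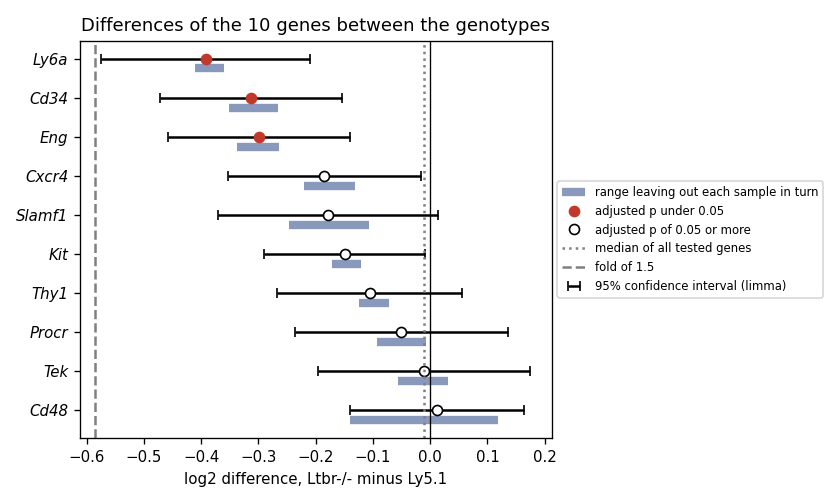
Log2 differences (Ltbr-/- minus Ly5.1, horizontal axis) of the 10 genes with 95% confidence intervals from limma, red where the adjusted p was under 0.05, and blue bars for the range over fits without 1 of the samples. Ly6a (-0.39), Cd34 (-0.31) and Eng (-0.30) lie farthest from 0, none reaches the dashed line of a 1.5-fold decrease, and the ranges of Cd48 and Tek span 0.

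Neither of the niche receptors Tek and Cxcr4 passed the test. Tek, on chr4:94739086-94874976, encodes the receptor tyrosine kinase Tie2. Its signal was 663, 710.3 and 629 in Ltbr-/- and 634, 713 and 671 in Ly5.1 replicates 1 to 3, and the groups overlapped almost completely. The difference of -0.01 ± 0.09 (limma adjusted p = 0.961) left a ratio interval of 0.873 to 1.13. Cxcr4, on chr1:128588199-128592299, encodes the G protein-coupled receptor for CXCL12 and read 1552, 1562 and 1617 in Ltbr-/- and 1932, 1748 and 1706 in Ly5.1 replicates 1 to 3. All Ltbr-/- samples were lower, and the Ly5.1 samples were spread out by replicate 1. The log2 difference of -0.19 ± 0.08 had an unadjusted p of 0.0324 and an adjusted p of 0.140 (limma), and after a correction for transcript length and GC content it was -0.23 (adjusted p = 0.0471).

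Cxcr4 lies 9.47 Mb from Ptprc, the gene whose CD45.1 and CD45.2 alleles set the donors apart, on a chromosome 1 stretch that can differ between the strains. Slamf1 and Cd48 lie 33.59 and 33.51 Mb from it and Cd34 56.76 Mb. Ptprc itself had a signal of 4025, 3896 and 3651 in Ltbr-/- and 4391, 4544 and 4225 in Ly5.1 replicates 1 to 3, with a log2 difference of -0.19 (limma adjusted p = 0.0878). Of the 4 genes on chromosome 1, Cd34 was the 1 that passed. The part of strain differences was not tested.

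To set the genes beside each other, the signal was divided by the length of each gene's longest protein-coding transcript, and the order can depend on that choice. Per kb, the mean level over the 6 samples was highest for Kit (1085 signal per kb), followed by Cd34 (1052), Cxcr4 (934), Eng (768) and Ly6a (687). After these came Procr (372), Tek (144), Slamf1 (104), Thy1 (64.4) and Cd48 (21.2). Among the first 5 each range overlapped the next (Kit 988 to 1164, Cd34 879 to 1196, Cxcr4 859.6 to 1071, Eng 666 to 889, Ly6a 567 to 803), although Kit lay wholly above Eng and Ly6a, and Cd34 and Cxcr4 wholly above Ly6a. From Ly6a downwards each gene lay wholly below the one before, with Procr at 344 to 395, Tek at 135 to 153, Slamf1 at 96.5 to 122, Thy1 at 60.2 to 69.9 and Cd48 at 16.9 to 24.3. The marker sorted against, Cd48, thus had the lowest mRNA level of the 10, and Kit was among the highest, overlapping Cd34 and Cxcr4, while Slamf1 was in the lower part of the order.

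**Figure D3:**
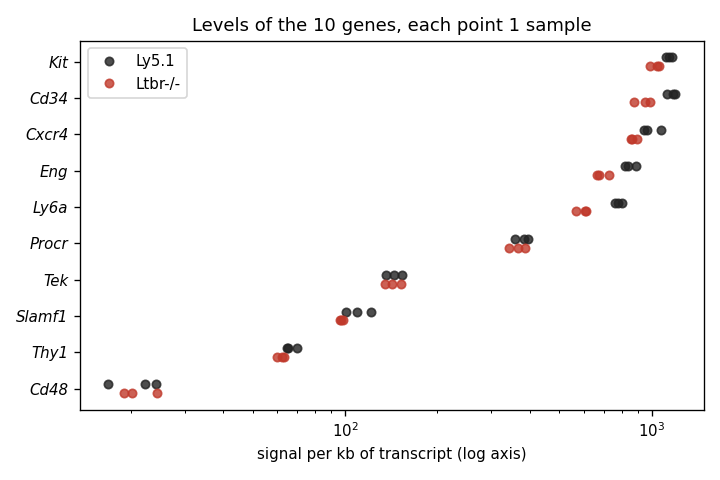
Signal per kb of transcript (log axis) of the 10 genes in order of their mean, each point 1 sample, black for Ly5.1 and red for Ltbr-/-. Each of Kit, Cd34, Cxcr4, Eng and Ly6a overlaps the next in the order, and Cd48 lies below 25 signal per kb in every sample.

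The genes nearest in pattern were sought over the 6 samples, by the root mean square difference of log2 values after each gene's own mean was subtracted. For Ly6a these were As3mt (0.0335) and Gm1966 (0.0420), against a median of 0.211 over all tested genes. For Cd34 they were Usp12 (0.0216) and Surf6 (0.0313), with a median of 0.182. For Eng they were Zfp687 (0.0179) and Sik2 (0.0211), with a median of 0.174. No gene was among the 2 nearest of more than 1 of the 3. With so few taken for each, this does not show that the patterns of the 3 differed.

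Genes that act with these receptors were followed in 9 lists of ligands, co-receptors, signalling proteins and family members. Of 116 genes tested, 15 were lower and 13 higher in Ltbr-/- cells, with a median log2 difference of -0.07. Over all tested genes 4.18% were lower and 10.6% higher, with a median of -0.01. The number of lower genes was 7 without Ltbr-/- replicate 2 or 3 and 8 without Ly5.1 replicate 2. Of the 28 genes that passed, Mif, Ly6e, Cd63, Grb7, Arrb2 and Gpr56 also did so in every alternative setting that included them, whereas Cd93 and Itga6 missed the threshold in 8, Gnai3 in 9 and Tie1 in 10. In each list both calls and non-calls were found, except in that of the CD34 family and selectins, where none of 5 passed. The remaining adjusted p-values in the next paragraphs are from the same limma fit with Benjamini-Hochberg adjustment.

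In the SCF and Kit list, 2 of 20 tested genes passed, both higher. They were Socs1, an inhibitor of cytokine receptor signalling (68.9 ± 1.70 to 81.1 ± 2.13, log2 difference 0.23), and Dok1, an adaptor that dampens tyrosine kinase signalling (793 ± 159 to 1013 ± 62.8, 0.37, with overlapping groups). Socs1 missed the threshold in 3 of 15 alternative settings and Dok1 in 7 of 16, with smallest differences of 0.08 and 0.22. Kitl, which encodes SCF itself, was at 1 in all samples. The most abundant others, the phosphatases Ptpn6 (-0.15) and Inpp5d (-0.16), did not pass, and both limit Kit signalling.

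In the Tie2 list, 3 of 5 passed. Angpt1, the activating ligand of Tie2, read 3494 ± 124 in Ltbr-/- and 4238 ± 174 in Ly5.1 cells, a log2 difference of -0.28 (limma adjusted p = 0.00763) without overlap. Tie1, the receptor that pairs with Tie2, was lower by a difference of -0.21 at an adjusted p of 0.0499 (limma), just under the threshold, and by -0.33 under quantile normalization. Grb7, an adaptor that binds Tie2, was higher (165 ± 9.38 to 259.9 ± 3.48, 0.66). Angpt2 was at about 12 in both groups and was not tested.

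The CXCL12 and CXCR4 list had 20 tested genes, of which 3 were lower and 3 higher. Mif, a cytokine that binds CD74 and CXCR4, had the largest rise (2411 ± 295 to 4934 ± 237, log2 difference 1.04), whereas Cd74, its receptor and the MHC class II invariant chain, fell (-0.42). Rgs1, which shortens G protein signalling, was lower (-0.28), as was Gnai3, an inhibitory G protein subunit (-0.27, and not past the threshold in the fit with the replicate block, or without Ltbr-/- replicate 3, where it was -0.17). Arrb2, the beta-arrestin that desensitises CXCR4 (0.41), and Gna13, another G protein subunit (0.40), were higher. Cxcl12 was at 1.34 and 1.35 and Cxcr7, the second CXCL12 receptor, at 1 in all samples. Adrbk1 (-0.15) and Gnai2 (-0.09), the most abundant of the rest, did not pass.

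Among 14 tested genes of the endoglin, BMP and TGF-beta receptor complex, 2 were lower and 2 higher. Smad3, a transcription factor of the TGF-beta branch (-0.40), and Tgfbr3, the co-receptor betaglycan (-0.37, and -0.23 without Ltbr-/- replicate 3, which did not pass), were lower, and Id1, a target of BMP signals (265 ± 38.2 to 402 ± 38.2, 0.61), and the ligand Tgfb1 (0.36, and 0.23 under quantile normalization) were higher. The type I receptor Acvrl1, through which endoglin signals in endothelium, was at about 14 in both groups and was not tested, and Gdf2, the gene of BMP9, was at 1. Smad2 (0.04) and Smad4 (-0.03) did not pass.

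In the protein C and EPCR list 1 of 7 passed, F2rl2, which encodes the thrombin receptor PAR3 (281 ± 22.1 to 383 ± 15.3, 0.45). The receptor PAR1, encoded by F2r, through which EPCR-bound protein C acts, had a log2 difference of 0.13 that did not pass, and Cdc42 one of 0.01. Proc and F2rl1 were at 1 in all samples. Of the SLAM genes Ly9 (-0.29) was lower and Sh2d1b1 (0.16), an adaptor at a signal of only about 20, higher. Ly9 missed the threshold in 5 of 16 alternative settings and Sh2d1b1 in 2 of 15, with a smallest difference of 0.009 for Sh2d1b1. Cd84 (0.05) and Cd244 (0.07), the receptor of CD48, did not pass.

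Of 7 tested Ly6 family genes 1 was lower and 1 higher. Ly6e, a GPI-anchored relative that is also raised by interferon, was higher in Ltbr-/- cells (6565 ± 426 to 10457 ± 135, log2 difference 0.67, limma adjusted p = 3.98e-10), with no overlap, and by 0.37 under quantile normalization. Ly6g was lower (-0.12, and -0.27 after the length and GC correction) at a signal near 20, and Ly6c2 (-0.18) and Ly6c1 (0.01) did not pass. In the list of CD34 relatives and selectins, Selp had a log2 difference of 0.23 and the CD34 homologue Podxl one of 0.12, neither past the threshold.

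Of 33 other HSC surface proteins and niche receptors, 6 were lower and 2 higher. The lower genes were the adhesion receptor Gpr56 (22059 ± 613 to 18277 ± 311, log2 difference -0.27), Cd27 (-0.40), Cd93 (-0.27), the laminin-binding integrin Itga6 (-0.25), the IL-6 family receptor chain Il6st (-0.30) and Notch2 (-0.36). The higher genes were the tetraspanin Cd63 (1591 ± 63.4 to 2425 ± 131, 0.61) and Itga2b, the CD41 integrin of megakaryocytes and some HSCs (9380 ± 556 to 11640 ± 347, 0.31). Under quantile normalization Itga2b lost its call (0.01, adjusted p = 0.904), and Gpr56 was at -0.70. The call for Itga2b was also lost without variance moderation (adjusted p = 0.0747), and that for Il6st after the length and GC correction (-0.20, adjusted p = 0.149). The integrin Itgb1 (-0.09) did not pass.

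**Figure D4:**
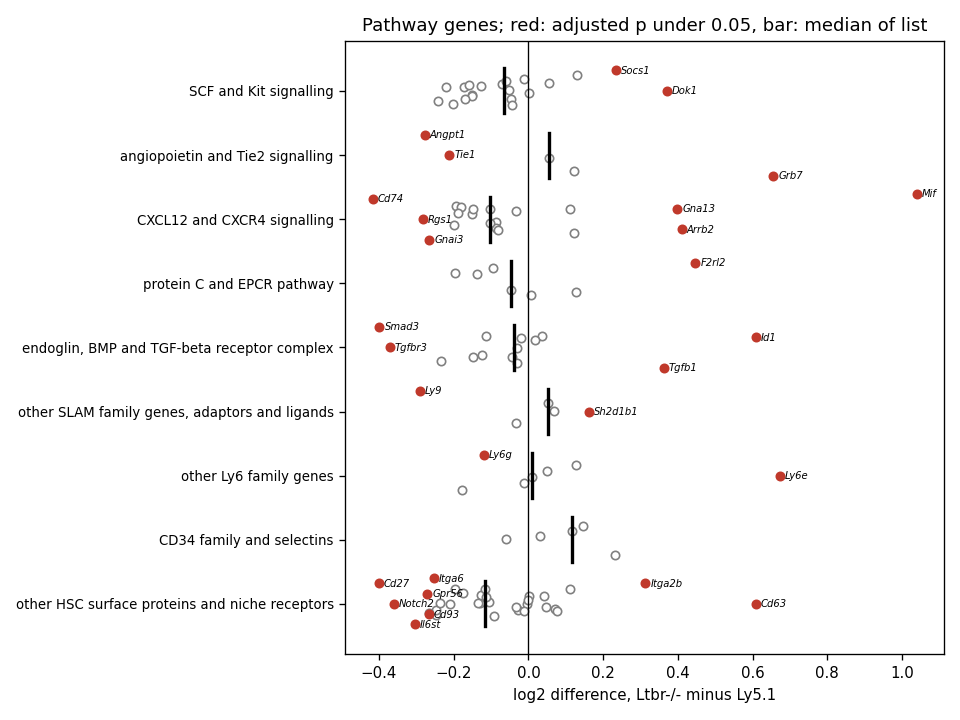
Log2 differences (Ltbr-/- minus Ly5.1, horizontal axis) of the tested genes in 9 pathway lists, each point 1 gene, red and named where the limma adjusted p was under 0.05, with a bar at the median of each list. Red points lie on both sides of 0 in most lists, from Cd74 (-0.42) to Mif (1.04).

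Transcripts of other cell types moved with the genotype, and their part in the differences of Ly6a, Cd34 and Eng was not tested. The summed signal of 12 markers of later progenitors, which carry Kit and Cd34 as well, was 11251 to 11559 in Ltbr-/- and 10121 to 10294 in Ly5.1 samples. Within that list 4 genes were higher, among them Fcgr3 (log2 difference 1.08), and 3 lower, among them Flt3 (-0.28). Il7r was at about 6 in both groups. The granulocyte and monocyte sum was lower in Ltbr-/- samples, with 11 of 12 genes lower, among them Mpo (-0.39) and S100a9 (-0.47), and Emr1 higher (0.83).

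The mast cell and basophil sum was higher (7362 to 7741 against 3618 to 4267), through Cma1 (1.32) and Cpa3 (0.56), the 2 of 6 tested markers that passed. Mcpt8 (-0.22), Fcer1a (-0.10) and Ms4a2 (-0.04) did not pass, nor did Hdc (0.10). Tpsb2 was at 1 in all samples. Mast cells also carry Kit, and their part in its values was not tested. Endothelial cells carry Eng, Cd34, Procr and Tek. The sum of 14 endothelial markers was 6734 to 6917 in Ltbr-/- and 7420 to 7819 in Ly5.1 samples, held mainly by Tie1, Vwf and Pecam1, which HSCs also express, while Sox17 and Mmrn2 were at 1 and Cldn5 was below 1 in both groups. The stromal and bone sum was 264 to 287 and 278 to 326, with 6 of its 11 markers at 1 in all samples.

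Of the remaining sums, those of B cell, erythroid and HSC markers did not overlap between the groups, the erythroid ones by a narrow gap. The megakaryocyte sums overlapped. The B cell sum was 625 to 656 against 462 to 521, through Cd79a (0.62), and the megakaryocyte sum 872 to 926 against 889 to 1049.7. The erythroid sum was 10931 to 11082 against 10784 to 10852, with Hba-a1 higher (0.99) and Car2 lower (-0.26). The sum of 8 HSC transcripts was 5767 to 6043 in Ltbr-/- and 6515 to 6629 in Ly5.1 samples, and of these genes Meis1 was lower (-0.23) and the other 7 did not pass.

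**Figure D5:**
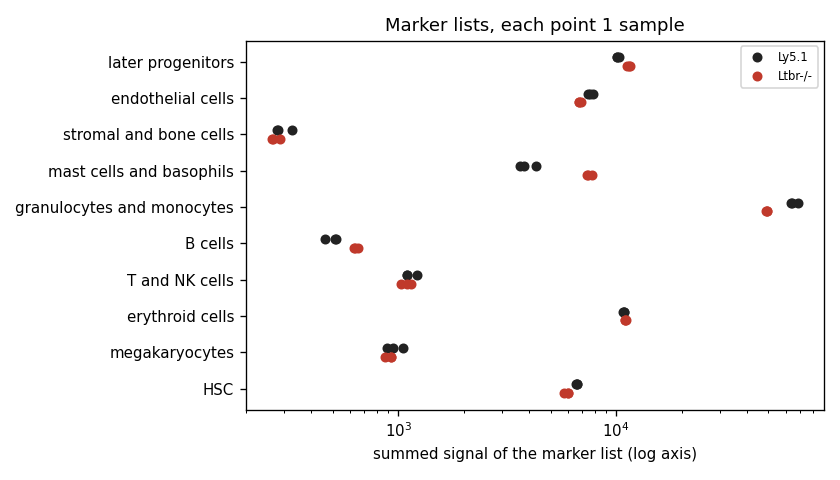
Summed signal (log axis) of 10 marker lists in each sample, black for Ly5.1 and red for Ltbr-/-. The granulocyte and monocyte list lies lower and the mast cell and basophil list higher in all red points, and the HSC list is lower in all red points.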

How the data were processed

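RNA of FACS-purified bone marrow LT/ST-HSCs was converted to libraries with a stranded poly(A) kit and sequenced in single reads of 76 bases. Reads were assembled in SeqMan NGen (v.16) by the authors, who used ArrayStar (v.16) for quantification and Bioconductor for regularized log values. The processing notes that the authors submitted name DESeq2, GRCm38 and mm10. The annotation is not given in the sources used here. The deposited signal is linear, and that it is 2 to the power of the regularized log was inferred from its values, 9034 names being at 1 in all samples. If so, scaling and shrinkage are built in, and differences of weakly expressed genes are understated.

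Each sample has 26595 values. Of repeated names the row with the highest mean was kept, and names in the upper 50% by mean were tested. The log2 signal was fitted without a pseudocount with limma 3.58.1 in R 4.3.3 (lmFit and eBayes with trend, no covariate), with Benjamini-Hochberg adjustment over all 13108 names and the study's thresholds of an adjusted p under 0.05 and a fold of 1.5. In simulated data for this comparison with 200 of 13108 genes changed, 27% of the changes of 0.3 and 100% of those of 1 on the log2 scale were recovered, and 3.8% of calls were unchanged genes. In the real data 1936 genes passed, a larger share, so these rates need not hold there. Ratios were compared by exact permutation with scipy 1.17.1 in Python 3.11.15.

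The 10 genes, the lists and the tests were chosen with earlier results of these data known. Genes named from the lists were all with an adjusted p under 0.05, the 2 others with the highest mean in each pathway list, and markers and ligands that define a list. Some genes that this rule names are not reported here. The deposited values are not counts, so depth is unknown. Precision rests on the spread of 3 pooled samples per group, which is not the spread between animals. The limma p-values set each difference against a variance moderated over all tested genes. Transcript lengths and shared windows are from GENCODE M21, positions and windows before starts from RefSeq for GRCm38.p6, and RefSeq symbols were found for 22316 names and synonyms alone for 2254.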

Additional observations from a re-analysis of the deposited data

How the results depend on the processing

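The 3 calls among the 10 genes and the absence of calls at a fold of 1.5 held in every fit without 1 of the samples (3 genes with an adjusted p under 0.05 each time). Scaling to the total signal, which was higher in all Ltbr-/- samples, moved the median of all genes to -0.16 and gave 5883 lower genes of 6688 calls, against 548 of 1936, and 914 of 2160 under quantile normalization. With it 7 of the 10 genes passed, adding Kit (-0.30), Slamf1 (-0.33), Thy1 (-0.26) and Cxcr4 (-0.34), which relative to the shifted median are -0.14, -0.17, -0.09 and -0.17; Cd48 became -0.14. Kit also passed under quantile normalization (-0.34) and Cxcr4 after the length and GC correction (-0.23), which turned Cd48 to -0.082 and Tek to 0.055. Without moderation 1 of the 10 passed (Ly6a), with Cd34 at -0.31 and Eng at -0.30. Leaving out samples gave -0.14 to 0.12 for Cd48 (-0.09 without Ltbr-/- replicate 2, -0.14 without Ly5.1 replicate 1) and -0.057 to 0.032 for Tek (above 0 without Ltbr-/- replicate 3 or Ly5.1 replicate 2). Lower pathway genes numbered 65 with total signal, 3 without moderation and 7 to 13 when samples were left out (7 without Ltbr-/- replicate 2 or 3, 8 without Ly5.1 replicate 2). Higher ones numbered 7 without moderation and 8 in the upper 25% of names, a filter that leaves out Slamf1, Cd48 and Thy1. Of 441 alternative values of the 28 called pathway genes, 84 missed the threshold and 0 changed sign. The cause of these changes was not tested.

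Deviations of same-numbered samples correlated weakly (0.031, -0.005 and 0.09 over 13108 genes), and those of other pairs at -0.074 to 0.045. The numbers are taken as names only. Whether same-numbered pools came from the same chimeras cannot be told from these values. With the replicate number as a block, 1936 genes were called, as without it, and 3 of the 10, with Ly6a at -0.39, Cd34 at -0.31 and Eng at -0.30, and 14 lower pathway genes.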
